A study of Mus musculus with 4 samples.

Results

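The genes described here are 50 genes of DNA replication and deoxynucleotide supply, chosen by name for their function among the 24062 genes of the deposited counts table. All 50 were found in the table. They were placed in 6 sub-groups by role: 20 genes of origin licensing and the replicative helicase, 9 of the DNA polymerases and primase, 11 of the sliding clamp, its loader, the single-strand binding protein RPA and Okazaki fragment processing, 5 of nucleotide synthesis, 2 of chromatin assembly and 3 of fork protection. RNA was sequenced from gBT-I cells, transgenic mouse CD8+ T cells with a receptor specific for a glycoprotein B peptide from herpes simplex virus. In all groups the donors were SPF gBT-I transgenic mice, whose splenocytes were cultured with gB498-505 peptide and LPS, supplied with IL-1 (as the labels name it) on days 2 and 3, and injected intravenously on day 4. The recipients were C57BL/6 mice, either specific pathogen free (SPF, 2 libraries) or germ free (GF, 2 libraries), and the transferred cells were sorted from the spleen 7 days later. The labels give no age, and they do not say whether the 2 libraries of a group came from separate mice, so the p-values below speak of the spread among these libraries, which may be technical.

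A cell copies its genome in S phase. Origins are marked by the origin recognition complex, loaded with the ring-shaped MCM helicase by CDC6 and CDT1, and fired by kinases that recruit CDC45 and the GINS complex. Primase and polymerase alpha then start each strand, polymerases epsilon and delta extend it, and the PCNA clamp holds them on the template, while ribonucleotide reductase and thymidylate enzymes supply the building blocks. Activated CD8+ T cells divide rapidly, and much of this machinery is transcribed under E2F factors as cells enter the cycle.

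A library held between 11544960 counts (SPF replicate 1) and 14431533 counts (GF replicate 2). Levels are given as CPM, a gene's counts scaled to library size with the trimmed mean of M-values (TMM), always with replicate 1 before replicate 2 and SPF before GF. T cell markers were abundant: Cd8a measured 932 and 790.3 against 991 and 940.3 CPM, and Cd3e 454 and 336 against 382 and 378 CPM. B cell markers followed the replicate number: 14 genes, each detected, summed to 122 and 29.7 CPM in SPF and to 146 and 32.0 CPM in GF, with Cd74 at 22.0 and 1.34 against 33.2 and 1.79 CPM. Markers of NK cells summed to between 267 and 413 CPM, mostly Gzma. Myeloid markers summed to between 87.0 and 129.8 CPM, mostly Itgam. Dendritic markers summed to between 401 and 1019 CPM, nearly all from Itgax. Klra8, Klra4, Mpo, Elane and the 6 haemoglobin genes were at 0. Per library, Ncr1 had 0 to 3 counts, Flt3 0 to 2, Clec9a 0 to 1 and Csf1r 0 to 7. Other members were higher, such as Klrb1c (29.6 to 50.4 CPM) and Xcr1 (13.4 to 20.4 CPM). The erythroid list summed to between 64.2 and 75.7 CPM, nearly all Tfrc, which activated T cells also express. Plasma cell and CD4 or regulatory T cell lists summed to between 131 and 163 and between 66.4 and 108 CPM. Xbp1 and Zbtb7b were their most abundant genes, and Cd4 had 0 to 6 counts per library. The part of other cells in the results below was not tested. In bulk RNA, fewer cells of a type or phase and less RNA per cell cannot be told apart.

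No replication or nucleotide gene passed the edgeR quasi-likelihood test of GF against SPF after Benjamini-Hochberg adjustment over 11271 tested genes (threshold 0.05), and the smallest adjusted p among the 50 was 0.855. The share of all tested genes called was likewise 0%. On simulated counts with a difference by replicate number built in, this edgeR test found 0% of the 2-fold and 0% of the 4-fold changes. Without that difference it found 84% and 97%. In the data, the log2 differences of replicate 2 minus 1 correlated between SPF and GF (Pearson's r of 0.71 across tested genes). A lack of calls, here or in the lists below, therefore cannot decide whether a gene differs between groups. All 50 genes passed the filter on low counts. At an unadjusted p under 0.05 the test found 1 of the 50 higher in GF (Chaf1a) and 1 lower (Prim1), beside 2.17% of all tested genes higher and 1.05% lower. DESeq2 and the edgeR exact test called 0 of the 50, and each called 0.071% of all tested genes higher and 0.00887% lower. With limma-voom, 0 of the 50 and 0% of all tested genes were called. Fold changes were above 0 for 19 genes and below 0 for 31, with a median log2 fold change of -0.11 against -0.00 over all tested genes. Both GF libraries lay above both SPF libraries for 9 of the 50 genes (18%, against 16.8% of tested genes), and below them for 13 (26%, against 16.4%). For 34 of the 50, the difference between replicates of SPF or of GF exceeded the fold change between groups. The same count was not made over all tested genes, so it does not set these genes apart. Without SPF replicate 2 the same test called 2 of the genes higher (Chaf1a and Pole) and 1 lower (Rpa3), beside 6.77% and 4.7% of tested genes.

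**Figure D1:**
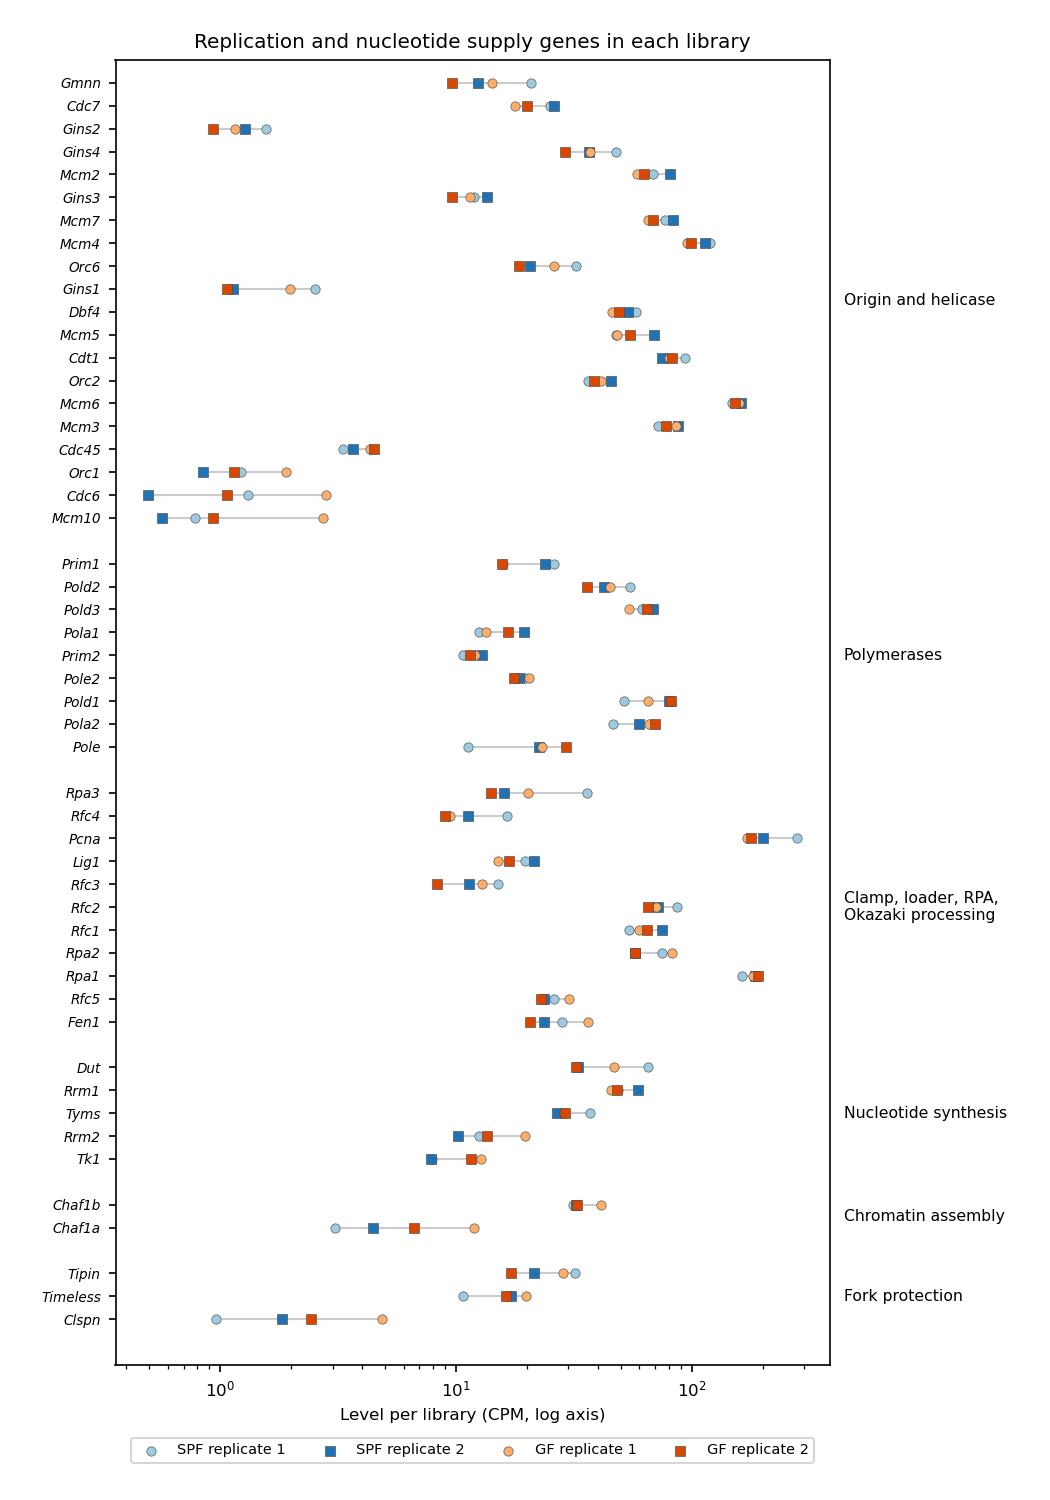
Level of each of the 50 genes in each of the 4 libraries (CPM, log axis), grouped by role; circles are replicates 1, squares replicates 2, blue SPF and orange GF, and grey lines join the lowest and highest library. Pcna reaches farthest right, at 279.6 CPM in SPF replicate 1, and Orc1, Cdc6, Mcm10, Gins1 and Gins2 stay under 3 CPM in every library.

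**Figure D2:**
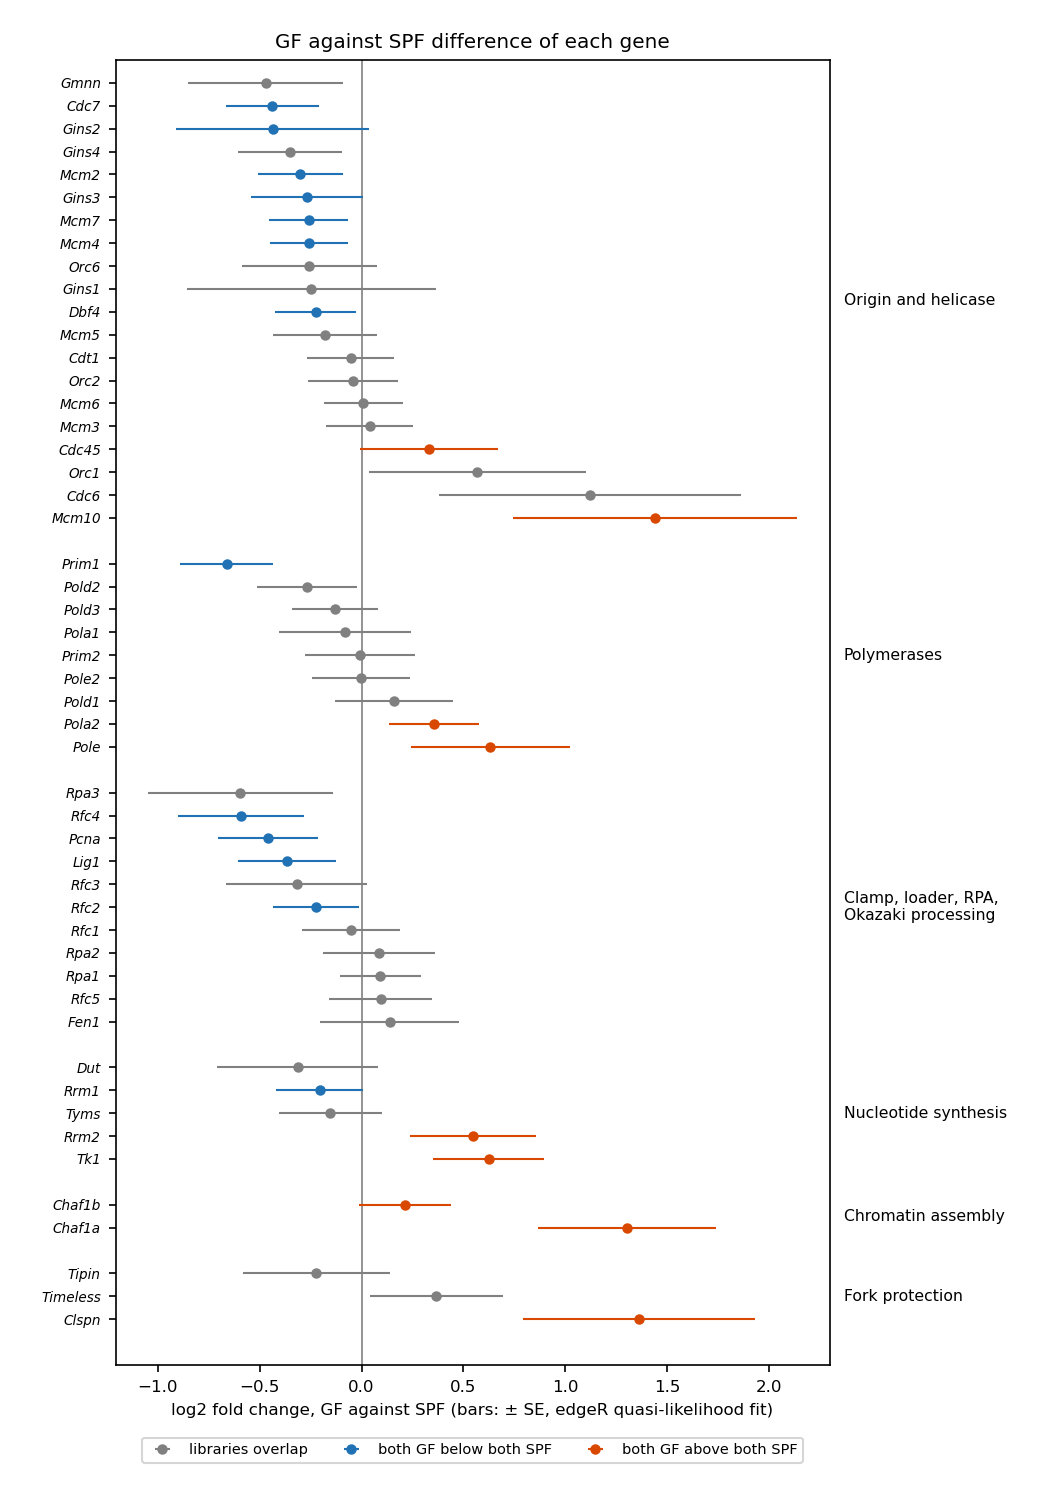
Log2 fold change of GF against SPF for each gene with its standard error from the edgeR quasi-likelihood fit (n = 2 libraries per group); orange genes have both GF libraries above both SPF libraries, blue genes the reverse, and grey genes overlap. The values run from -0.66 (Prim1) to 1.44 (Mcm10).

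Promoters were read from RefSeq (GRCm38.p6, the assembly of mm10) as windows of 300 bases, 250 before and 50 after the annotated start. Windows were found for 41 of the 50 genes, 48 in all, and not for Gins1, Gins2, Gins4, Gmnn, Mcm4, Pole, Prim2, Rfc2 and Tipin. They were searched on both strands for an E2F core (TTGGCGC or TTCGCGC), a CHR element (TTTGAA), which marks many mitotic promoters, and a CCAAT box (CCAAT). The E2F core was in 31.3% of these windows against 3.89% of all 32851 windows, and in 19.4% of 31 windows of mitotic genes. The CHR element was in 16.7% against 17.9% of all windows and 74.2% of mitotic windows, and the CCAAT box in 54.2%, 37.4% and 87.1%. By sub-group the E2F core was in 33.3% of origin, 25% of polymerase, and 46.2% of clamp and RPA windows. It was in 0 of 5 nucleotide synthesis windows, 0 of 2 chromatin assembly windows and 1 of 2 fork protection windows. Other forms of the E2F site were not searched, so a window without a match may hold one.

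**Figure D3:**
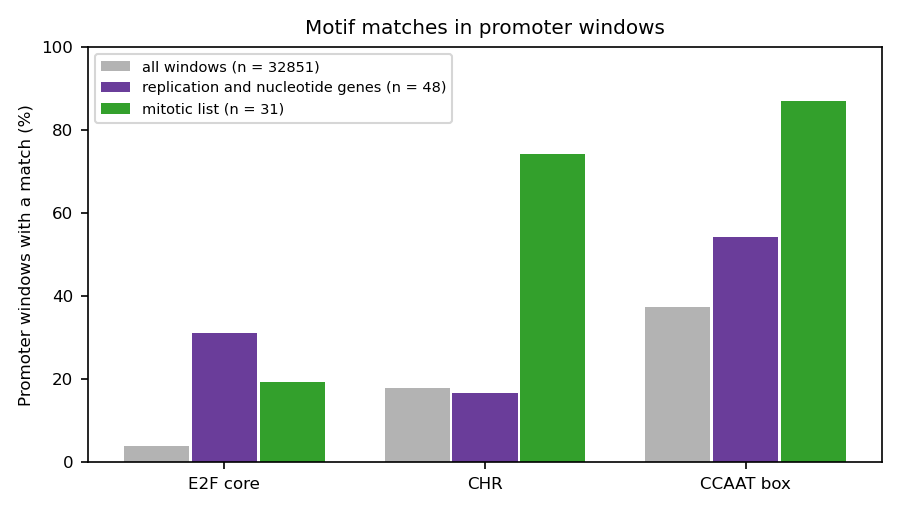
Share of promoter windows (%) with a match to each motif, for all windows (grey), the replication and nucleotide genes (purple) and the mitotic list (green). The E2F core is in 31.3% of replication windows against 3.89% of all windows, and the CHR element in 74.2% of mitotic windows.

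Of the genes with a promoter window, those with the smallest p in each direction (Chaf1a and Clspn above 0, Prim1 and Cdc7 below 0) and Mcm5 as an MCM gene are shown 5′ to 3′ on the strand of the gene, with every match in capitals. They lie at chr17:56040166-56040465 (plus), chr4:126556730-126557029 (plus), chr10:128014965-128015264 (plus), chr5:106964072-106964371 (plus) and chr8:75109259-75109558 (plus).
Chaf1a: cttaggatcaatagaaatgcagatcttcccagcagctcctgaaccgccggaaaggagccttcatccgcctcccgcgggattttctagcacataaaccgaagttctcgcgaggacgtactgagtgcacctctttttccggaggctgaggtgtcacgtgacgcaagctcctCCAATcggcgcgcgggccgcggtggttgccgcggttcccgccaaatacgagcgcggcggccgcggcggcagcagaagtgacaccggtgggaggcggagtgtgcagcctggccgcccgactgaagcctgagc
Clspn: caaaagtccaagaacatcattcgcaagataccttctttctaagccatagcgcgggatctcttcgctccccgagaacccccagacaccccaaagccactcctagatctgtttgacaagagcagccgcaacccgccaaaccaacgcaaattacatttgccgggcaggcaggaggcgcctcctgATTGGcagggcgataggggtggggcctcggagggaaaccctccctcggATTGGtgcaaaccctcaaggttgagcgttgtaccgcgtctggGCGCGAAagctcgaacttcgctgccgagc
Prim1: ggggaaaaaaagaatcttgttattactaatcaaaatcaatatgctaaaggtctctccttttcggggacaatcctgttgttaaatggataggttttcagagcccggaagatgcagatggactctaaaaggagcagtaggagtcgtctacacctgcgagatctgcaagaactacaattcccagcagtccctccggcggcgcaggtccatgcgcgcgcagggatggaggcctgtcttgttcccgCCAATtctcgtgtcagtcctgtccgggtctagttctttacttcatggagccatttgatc
Cdc7: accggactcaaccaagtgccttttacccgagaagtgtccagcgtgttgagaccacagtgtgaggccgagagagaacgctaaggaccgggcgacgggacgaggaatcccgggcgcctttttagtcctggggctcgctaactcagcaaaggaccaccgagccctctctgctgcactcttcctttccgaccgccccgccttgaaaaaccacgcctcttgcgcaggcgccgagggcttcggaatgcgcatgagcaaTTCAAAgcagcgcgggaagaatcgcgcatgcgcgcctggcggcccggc
Mcm5: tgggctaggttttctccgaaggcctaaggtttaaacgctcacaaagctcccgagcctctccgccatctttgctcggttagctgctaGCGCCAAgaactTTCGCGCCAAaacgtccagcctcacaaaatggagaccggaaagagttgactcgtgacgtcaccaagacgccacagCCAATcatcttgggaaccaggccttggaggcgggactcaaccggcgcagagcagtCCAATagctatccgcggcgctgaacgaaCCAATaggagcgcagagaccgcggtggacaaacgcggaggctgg

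In these letters, Mcm5 held 3 E2F core matches, 2 of which share bases with each other, and 3 CCAAT boxes. Clspn held 1 E2F core 22 bases after the start and 2 CCAAT boxes on the opposite strand. Cdc7 held 1 CHR element on the opposite strand at the start. Chaf1a and Prim1 each held 1 CCAAT box and neither TTGGCGC nor TTCGCGC, the E2F forms searched. A related string, TTCCCGC, was not searched and occurs in both, and in Cdc7 on the opposite strand. A match is a description of the letters and not a shown binding site.

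Medians by sub-group are given as a description without a test. The median log2 fold change was -0.24 for origin and helicase genes, -0.01 for polymerases, -0.22 for the clamp, loader, RPA and Okazaki genes, and -0.15 for nucleotide synthesis. It was 0.76 for the pair of chromatin assembly genes (1.30 for Chaf1a and 0.21 for Chaf1b) and 0.37 for the 3 fork protection genes. Within replicate number 1, GF minus SPF gave medians of -0.22, 0.11, -0.22, -0.09, 1.15 and 0.87 for the sub-groups in that order, and within replicate number 2 they were -0.18, -0.08, -0.18, 0.10, 0.29 and -0.07. Chromatin assembly, origin and clamp genes thus kept their side of 0 within both numbers, and the other sub-groups did not. The labels do not tie the numbers to an animal, day or batch. In the same order, GF replicate 1 minus SPF replicate 2 gave -0.03, -0.10, -0.02, 0.50, 0.87 and 0.42. GF replicate 2 minus SPF replicate 1 gave -0.21, 0.10, -0.41, -0.01, 0.57 and 0.60, so fork protection kept its side in these pairs. With the length trend described below removed, the origin median was -0.08. It was -0.11 without GF replicate 2, and the clamp median was -0.08 without SPF replicate 1. The polymerase median was -0.12 without SPF replicate 1 and 0.13 without SPF replicate 2. For fork protection genes the median was 0.74 without SPF replicate 2 and 0.10 without SPF replicate 1, and for nucleotide synthesis it was 0.27 without SPF replicate 1. The summed level of origin genes was 869 and 888 CPM in SPF and 801 and 784 CPM in GF, and that of clamp genes 801 and 696 against 690.1 and 648 CPM.

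**Figure D4:**
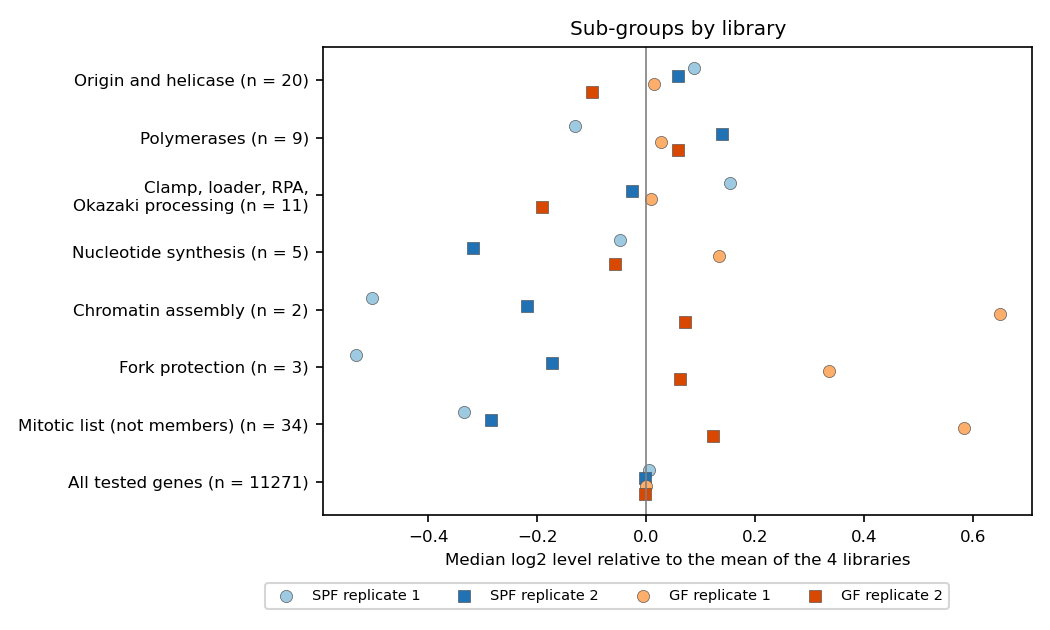
Median log2 level of each sub-group in each library, relative to each gene's mean over the 4 libraries, with a list of mitotic genes and all tested genes beside them; colours and symbols are by group and replicate. Origin genes span -0.10 to 0.09, while chromatin assembly genes run from -0.50 in SPF replicate 1 to 0.65 in GF replicate 1.

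The origin genes start with the origin recognition complex. Orc2 measured 36.4 and 45.5 CPM in SPF and 41.1 and 38.6 CPM in GF, and Orc6 32.4 and 20.7 against 25.96 and 18.5 CPM, so the groups overlapped for both. Orc1, the subunit whose human protein is degraded outside G1, was scarce, with 14 and 12 counts in SPF and 28 and 16 in GF. The loading factor Cdc6 had 15 and 7 counts against 41 and 15, or 1.31 and 0.495 against 2.80 and 1.07 CPM, a log2 fold change of 1.12 (SE 0.74) with overlapping groups. It was 0.27 without GF replicate 1 and 1.95 without SPF replicate 1. Its partner Cdt1 measured 93.9 and 75.1 against 80.1 and 82.7 CPM, and Gmnn, which encodes the CDT1 inhibitor geminin, had 20.9 and 12.4 against 14.3 and 9.66 CPM. Both also overlapped between groups.

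The 6 subunits of the MCM ring, Mcm2 to Mcm7, had a median log2 fold change of -0.22, with 3 of the 6 lower in GF without overlap, beside 16.4% of tested genes. Mcm6 measured 148 and 162 CPM in SPF and 159 and 153 CPM in GF, a log2 fold change of 0.01 (SE 0.19). Mcm2 had 68.3 and 81.2 against 58.8 and 62.7 CPM, a log2 fold change of -0.30 (SE 0.21), with no overlap. Mcm4 (119 and 114 against 95.2 and 99.5 CPM) and Mcm7 (76.7 and 83.4 against 65.4 and 68.3 CPM) likewise showed lower levels in GF without overlap. Mcm3 (71.8 and 87.3 against 85.5 and 78.2 CPM) and Mcm5 (47.8 and 69.1 against 48.4 and 54.8 CPM) overlapped (log2 fold change -0.18, SE 0.26 for Mcm5). The MCM proteins form a ring with 1 copy of each, but their RNA levels per kb of exonic length spanned 2.97-fold to 4.02-fold within a library. Mcm6 or Mcm4 was highest, at 32.8 to 34.6 CPM per kb, and Mcm2 lowest, at 8.46 to 11.7 CPM per kb. With the length of the principal transcript, chosen after seeing the data, Mcm5 was lowest and the spread was 2.72-fold to 3.81-fold.

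Of the factors that fire the loaded helicase, the kinase subunit Cdc7 (chr5:106964322-106984432 in mm10, plus strand) measured 25.2 and 26.1 CPM in SPF and 17.8 and 20.04 CPM in GF. The GF values were both under the SPF values, with a log2 fold change of -0.44 (SE 0.23, unadjusted p = 0.11 and adjusted p = 0.855 by edgeR). Its activator Dbf4 had 57.8 and 53.8 against 46.1 and 49.3 CPM, also without overlap. Mcm10, an initiation factor outside the ring, rested on 9 and 8 counts in SPF and 40 and 13 in GF. Its log2 fold change of 1.44 (SE 0.70) was 0.46 without GF replicate 1 and 2.01 without GF replicate 2. Cdc45 had 3.32 and 3.67 against 4.30 and 4.51 CPM. Of the GINS subunits, Gins4 had 47.9 and 36.6 against 37.1 and 29.1 CPM and Gins3 11.9 and 13.5 against 11.5 and 9.59 CPM, while Gins1 (29 and 16 against 29 and 15 counts) and Gins2 (18 and 18 against 17 and 13 counts) rested on few counts. In the annotation, 67.3% of the exonic length of Gins2 overlaps exons of Gse1 on the opposite strand, and the kit does not mark strand.

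Primase, which makes the RNA primers, has a catalytic subunit encoded by Prim1 and a regulatory subunit encoded by Prim2. Prim1 (chr10:128015168-128030037, plus strand) measured 26.03 and 23.9 CPM in SPF and 15.8 and 15.7 CPM in GF. The GF libraries were alike and both under both SPF libraries, with a log2 fold change of -0.66 (SE 0.23, unadjusted p = 0.033 and adjusted p = 0.855 by edgeR). It lay between -0.73 and -0.60 with each library left out in turn. The group levels were 24.95 ± 1.52 CPM for SPF against 15.8 ± 0.124 CPM for GF (mean ± SD, n = 2 per group). Prim2 had 10.7 and 12.9 against 12.02 and 11.5 CPM, so the Prim1 to Prim2 count ratio was 2.42 and 1.85 in SPF and 1.32 and 1.36 in GF, a comparison chosen after its values were seen. The partner subunits of polymerase alpha had 12.5 and 19.4 against 13.5 and 16.7 CPM (Pola1, catalytic) and 46.2 and 59.5 against 65.6 and 69.6 CPM (Pola2, the accessory subunit). For Pola2 the groups did not overlap (log2 fold change 0.36, SE 0.22).

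Pole, the catalytic subunit of the leading strand polymerase (chr5:110286306-110337474, plus strand), measured 11.3 and 22.5 CPM in SPF and 23.2 and 29.2 CPM in GF. Its log2 fold change was 0.63 (SE 0.39), but SPF replicate 2 lay close to GF replicate 1, and the value was 0.22 without SPF replicate 1 and 1.21 without SPF replicate 2 (adjusted p = 0.025 by edgeR in the latter). Its accessory subunit Pole2 had 19.7 and 18.5 against 20.5 and 17.6 CPM. Among the subunits of polymerase delta, Pold1 had 51.5 and 80.4 against 65.4 and 81.9 CPM, Pold3 61.7 and 68.2 against 54.2 and 64.5 CPM, and Pold2 54.9 and 42.6 against 44.9 and 35.9 CPM. All 3 overlapped between groups, and Pold2 (log2 fold change -0.27, SE 0.25) was highest per length of the polymerase genes, at 23.5 CPM per kb on average.

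Pcna, the sliding clamp, was highest of the 50 genes per length, with a mean of 86.3 CPM per kb of exons. It measured 279.6 and 199.9 CPM in SPF and 171 and 178 CPM in GF. Both GF libraries were lower, but SPF replicate 1 was far above SPF replicate 2, and the log2 fold change of -0.46 (SE 0.24, unadjusted p = 0.12 by edgeR) was -0.19 without SPF replicate 1 and -0.69 without SPF replicate 2. Of the clamp loader genes, the small subunit Rfc4 had 16.5 and 11.3 against 9.43 and 9.02 CPM (log2 fold change -0.59, SE 0.31) and Rfc2 86.6 and 71.8 against 70.8 and 65.0 CPM, both without overlap. The value of Rfc4 was -0.29 without SPF replicate 1 and -0.85 without SPF replicate 2. Rfc3 measured 15.1 and 11.4 against 12.9 and 8.30 CPM, Rfc5 26.1 and 23.6 against 30.1 and 22.9 CPM and the large subunit Rfc1 54.2 and 75.0 against 60.0 and 64.9 CPM, with overlap for all 3. Exons of Lat2 on the opposite strand cover 15.1% of the exonic length of Rfc2, and Lat2 itself measured 16.4 and 16.6 against 28.4 and 25.05 CPM.

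The 3 subunits of RPA, which coats single-stranded DNA, had log2 fold changes of 0.09, 0.09 and -0.60. Rpa1 measured 164 and 185 CPM in SPF and 182 and 191 CPM in GF, and Rpa2 74.7 and 57.3 against 82.6 and 57.5 CPM. Rpa3, the smallest subunit, with 1136 nt of exons, had 36.1 and 15.97 against 20.3 and 14.1 CPM. Its high value was SPF replicate 1 alone: the log2 fold change of -0.60 (SE 0.45) became 0.11 without that library and -1.08 without SPF replicate 2 (adjusted p = 0.025 by edgeR). For Okazaki fragments, the ligase gene Lig1 had 19.6 and 21.3 against 15.0 and 16.7 CPM without overlap (log2 fold change -0.36, SE 0.24), and the flap nuclease gene Fen1 28.1 and 23.7 against 36.4 and 20.5 CPM with overlap. An antisense gene, Gm10143, shares 78.8% of the exonic length of Fen1.

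Tk1, the thymidine kinase of the salvage route (chr11:117815526-117826092, minus strand), measured 7.95 and 7.84 CPM in SPF and 12.8 and 11.6 CPM in GF. The replicates of each group were close and the groups did not overlap, with a log2 fold change of 0.63 (SE 0.27, unadjusted p = 0.067 and adjusted p = 0.855 by edgeR). The group levels were 7.90 ± 0.0758 CPM for SPF against 12.2 ± 0.834 CPM for GF (mean ± SD, n = 2 per group), and the fold change lay between 0.55 and 0.69 with each library left out. Ribonucleotide reductase, which makes deoxynucleotides, joins a large subunit encoded by Rrm1 and a small subunit encoded by Rrm2. Rrm1 had 48.5 and 59.4 against 45.4 and 48.2 CPM, and Rrm2 12.5 and 10.2 against 19.7 and 13.5 CPM. Neither overlapped between groups, Rrm1 being lower in GF (log2 fold change -0.21, SE 0.21) and Rrm2 higher (log2 fold change 0.55, SE 0.31). For Rrm1 the gap was narrow, with SPF replicate 1 at 48.5 and GF replicate 2 at 48.2 CPM. Rrm1 was at -0.06 without SPF replicate 2 and -0.34 without SPF replicate 1, and Rrm2 at 0.25 without GF replicate 1 and 0.79 without GF replicate 2. The Rrm1 to Rrm2 count ratio was 3.88 and 5.80 in SPF and 2.31 and 3.56 in GF, a ratio chosen after its values were seen. Thymidylate synthase (Tyms) had 37.2 and 26.9 against 28.8 and 28.9 CPM, and the dUTPase gene Dut 65.5 and 32.9 against 46.7 and 32.4 CPM, with overlap for both (log2 fold change -0.15, SE 0.25 for Tyms and log2 fold change -0.31, SE 0.40 for Dut).

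Chaf1a and Chaf1b encode the subunits of CAF-1, which places histones H3 and H4 on new DNA. Chaf1a (chr17:56040439-56072289, plus strand) measured 3.06 and 4.45 CPM in SPF and 11.95 and 6.66 CPM in GF, from 35, 63, 175 and 93 counts. The groups did not overlap, at 3.75 ± 0.985 CPM for SPF against 9.30 ± 3.75 CPM for GF (mean ± SD, n = 2 per group), and the GF libraries lay apart from each other. The log2 fold change was 1.30 (SE 0.44, unadjusted p = 0.028 and adjusted p = 0.855 by edgeR), and it was 1.60 with an adjusted p of 0.039 without SPF replicate 2 and 0.82 without GF replicate 1. Chaf1b had 31.4 and 32.4 against 41.1 and 32.8 CPM (log2 fold change 0.21, SE 0.23). Its groups did not overlap by CPM, but SPF replicate 2 and GF replicate 2 each held 458 counts. The Chaf1b to Chaf1a count ratio was 10.3 and 7.27 in SPF and 3.43 and 4.92 in GF (also chosen after its values were seen). In the annotation, 52.5% of the exonic length of Chaf1a overlaps exons of Ubxn6 on the opposite strand, and Ubxn6 measured 94.9 and 74.3 against 82.2 and 69.2 CPM.

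Claspin, TIMELESS and TIPIN travel with the fork and relay checkpoint signals. Clspn had 11 and 26 counts in SPF and 71 and 34 in GF, or 0.961 and 1.84 against 4.85 and 2.43 CPM. Its log2 fold change was 1.36 (SE 0.57, unadjusted p = 0.059 and adjusted p = 0.855 by edgeR), and it was 0.78 without GF replicate 1 and 1.91 without SPF replicate 2. Timeless measured 10.7 and 17.2 against 19.7 and 16.3 CPM, and Tipin 32.1 and 21.3 against 28.6 and 17.2 CPM (log2 fold change 0.37, SE 0.33 and log2 fold change -0.22, SE 0.36). Clspn was the only one of the 3 without overlap.

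Level and direction were set side by side after the values were seen. Of the 7 genes under 5 CPM on average (Orc1, Cdc6, Mcm10, Cdc45, Gins1, Gins2 and Clspn), 5 had fold changes above 0, with a median log2 value of 0.57. Over all 1902 tested genes under 5 CPM, 59.7% had fold changes above 0 and the median was 0.14. The other 43 genes had 14 above 0 and 29 below, with a median of -0.15, against -0.02 over the 9369 tested genes at that level. SPF replicate 1 was the highest library for 18 of the 50 genes (36%), against 38.3% of all tested genes, and SPF replicate 2 for 14 (28%), against 14.7%. GF replicate 1 was highest for 13 of the 50 genes (26%), against 16.9% of all tested genes, and GF replicate 2 for 5 (10%), against 30.1%.

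Exonic length moved with the differences between replicates. Across the 50 genes, which are not independent replicates and share the same 4 libraries, Spearman's rho between length and the log2 difference of replicate 2 minus 1 was 0.65 in SPF and 0.38 in GF, against 0.51 and 0.46 across 11194 tested genes. It was 0.51 between length and the fold change of GF against SPF, a relation not computed over all tested genes. The 8 shortest genes (Rpa3, Gins4, Gmnn, Gins1, Rfc4, Tipin, Pold2 and Pcna, 1136 to 2400 nt) were each highest in SPF replicate 1, and the longest, Pole (11160 nt), was lowest there. Chaf1a (8854 nt) and Pola1 (8813 nt) were also lowest in that library. Rrm1 (11012 nt) was lowest in GF replicate 1 instead, and Dbf4 (8728 nt) was highest in SPF replicate 1. What makes the libraries differ by length was not tested. With the length trend removed from each library, the median log2 fold change of the 50 genes was -0.05 and that of the origin genes -0.08. Among single genes, Rpa3 was then at -0.19, Rfc4 at -0.29, Pcna at -0.28, Pold2 at -0.05 and Rrm1 at -0.41. Chaf1a was at 1.20, Tk1 at 0.57 and Prim1 at -0.63.

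**Figure D5:**
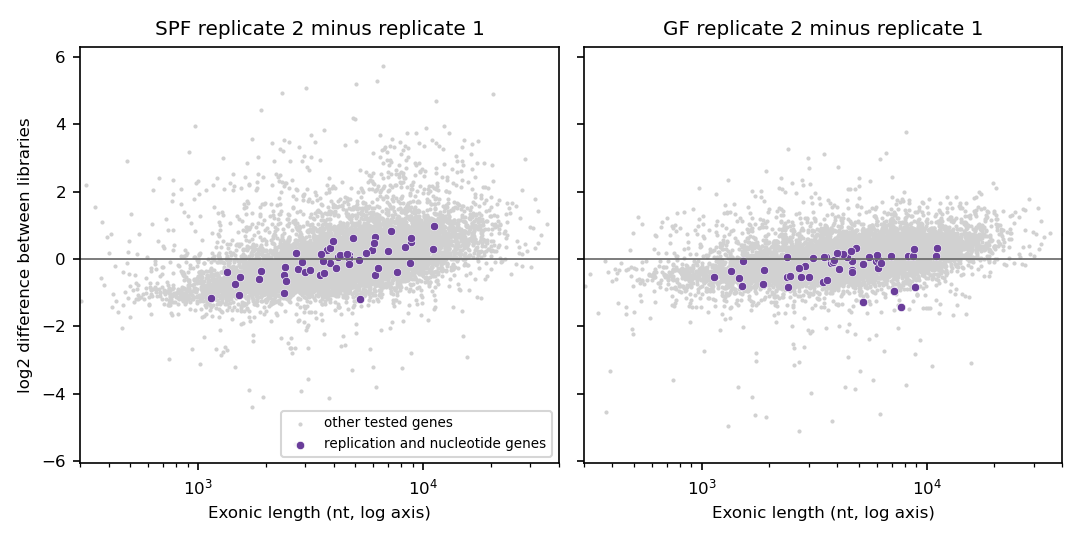
Log2 difference of replicate 2 minus replicate 1 within SPF (left) and GF (right) against exonic length (nt, log axis), with the 50 genes in purple over all other tested genes in grey. In both groups the purple points rise from left to right, with rho of 0.65 in SPF and 0.38 in GF.

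Further genes of the pathway were counted beside the 50. Of 37 further replication genes, such as clamp loader variants, checkpoint kinases and histone chaperones, 0 passed the edgeR test after adjustment, 20 had fold changes above 0 and 17 below, and the median was 0.05. Topbp1, a checkpoint and origin firing factor, had 107 and 160.2 against 193 and 196 CPM, and the polymerase epsilon subunit gene Pole4 194 and 97.9 against 83.1 and 76.0 CPM (log2 fold change 0.54, SE 0.26 and log2 fold change -0.88, SE 0.36). The RNase H2 subunit gene Rnaseh2c had 74.3 and 35.5 against 36.1 and 25.8 CPM (log2 fold change -0.82, SE 0.41) and the histone chaperone gene Asf1a 39.0 and 24.2 against 23.2 and 18.2 CPM (log2 fold change -0.61, SE 0.32). Of 35 further nucleotide genes, mostly of de novo purine and pyrimidine synthesis and one-carbon supply, 0 passed the edgeR test after adjustment, 10 had fold changes above 0 and 25 below, and the median was -0.15. Prps2, which makes the ribose phosphate donor, had 115 and 103 against 76.6 and 79.6 CPM (log2 fold change -0.48, SE 0.20), and Umps, of uridine synthesis, 38.3 and 38.1 against 26.2 and 29.1 CPM (log2 fold change -0.47, SE 0.21). Nme1, a nucleoside diphosphate kinase, had 225 and 107 against 112 and 79.8 CPM (log2 fold change -0.79, SE 0.41), and Ppat, the first enzyme of purine synthesis, 49.4 and 53.6 against 38.3 and 40.8 CPM (log2 fold change -0.38, SE 0.20). Among 21 tested genes of the E2F and G1 list, 0 passed the edgeR test after adjustment, 13 had fold changes above 0 and 8 below, and the median was 0.09. E2f2, an activating E2F factor, had 105 and 98.8 against 204 and 206 CPM, a log2 fold change of 1.01 (SE 0.19, unadjusted p = 0.0030 by edgeR), and E2f1 had 3.32 and 2.12 against 3.83 and 3.72 CPM (log2 fold change 0.48, SE 0.41). E2f8, a repressing member, had 2 and 1 counts in SPF and 39 and 11 in GF, while Rb1, the retinoblastoma gene, had 36.3 and 51.6 against 60.6 and 65.9 CPM (log2 fold change 0.52, SE 0.25) and E2f5 27.2 and 17.9 against 17.6 and 13.1 CPM (log2 fold change -0.55, SE 0.32).

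A list of mitotic genes was set beside the replication genes. Of 38 listed, 34 passed the filter on low counts. Fold changes were above 0 for 30 of these (88.2%, against 49.7% of all tested genes), with a median log2 value of 0.70. GF replicate 1 was the highest library for 25 of the 34 (73.5%), against 16.9% of all tested genes. The median log2 difference of GF replicate 2 minus GF replicate 1 was -0.57. Both GF libraries lay above both SPF libraries for 21 of the 38, beside 16.8% of tested genes and 9 of the 50 replication and nucleotide genes (18%). Mki67, a proliferation marker, had 7.60 and 18.2 against 49.9 and 47.7 CPM (log2 fold change 1.92, SE 0.44), and Top2a, which untangles chromosomes, 17.4 and 34.2 against 61.0 and 47.9 CPM (log2 fold change 1.08, SE 0.37). Espl1 (separase) had 2 and 1 counts against 35 and 13, Cenpf 3 and 4 against 41 and 17, and Ncapg, of condensin, 2.45 and 2.68 against 8.27 and 4.87 CPM (log2 fold change 1.35, SE 0.41). No mitotic gene passed the edgeR test after adjustment, and whether the lists differ was not tested.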

How the data were processed

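RNA was sequenced from gBT-I cells of SPF and GF recipients, 2 libraries each, with a TruSeq RNA kit that does not mark strand. The authors deposited whole-number read counts per gene symbol, not normalized, and the 4 columns were matched to samples by name. The build (mm10) and CASAVA, TopHat, Picard, featureCounts, Subread and edgeR are named per the submitters' processing notes. Which versions, settings or gene annotation they used is not given in the sources used here. Reads of overlapping or near-identical genes may be lost or split in such counting.

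Counts were tested with edgeR 4.0.16 (R 4.3.3): TMM scaling, filterByExpr (11271 genes kept), and a two-sided quasi-likelihood test comparing GF with SPF, no covariates, with Benjamini-Hochberg adjustment over all tested genes. A standard error is the absolute log2 fold change over the root of the F statistic. Log2 values per library use a prior count of 2. With 2 libraries a group, the smallest p of an exact permutation test is 0.33. Exonic lengths, positions and overlaps came from GENCODE M21 (GRCm38), as the union of a gene's exons, which matched 99.3% of tested genes. Alternatives were DESeq2 1.42.0, limma-voom (limma 3.58.1), the exact test, other scalings, filters and thresholds, a lowess length trend (span 0.3), the replicate number as a block, and each library left out. On simulated counts of this comparison (11176 genes), with the difference by replicate number built in, the main test found 0% of the 2-fold and 0% of the 4-fold changes put in. Without that difference (11153 genes) it found 84% and 97%. The simulated spread was that of the fit with the replicate block (common dispersion 0.0171, against 0.0763 without it). The 84% and 97% therefore need not hold for the data. A p that misses the threshold does not show that the groups are alike.

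Members and gene lists were chosen with earlier results of these data known. By rule, fold changes with errors are given for the 4 genes of smallest p in each sub-group, the gene highest per length and a panel, and the same for up to 4 genes of smallest p in each further list where both groups have over 5 counts; library values are given for the other members too. Figures were drawn with matplotlib 3.10.9.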

Additional observations from a re-analysis of the deposited data

How the results depend on the processing

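The median log2 fold change of the 50 genes lay between -0.14 and -0.04 in all alternatives examined. Over all genes, DESeq2 and the edgeR exact test each called 8 higher and 1 lower, and leaving out single libraries gave 0 to 783 higher and 0 to 544 lower. Of the 50 genes, 0 to 2 were then called higher and 0 to 1 lower. With the replicate block, 786 genes were called higher and 420 lower (6.97% and 3.73% of tested genes), of the 50 genes 2 higher (Chaf1a and Pole) and 1 lower (Prim1); with the block and the length trend removed, 765 and 448 (6.79% and 3.97%), of the 50 genes 1 (Chaf1a) and 1 (Prim1). The log2 differences of replicate 2 minus 1 correlated between SPF and GF with Pearson's r of 0.71 across tested genes and 0.52 across the 50, but the labels do not tie the numbers to an animal, day or batch, so the block is only a hint from the data. On the simulated counts with a difference by replicate number (11176 genes), the block found 81% of the 2-fold and 97% of the 4-fold changes, with 15 false among 193 calls. That difference was made equal in SPF and GF, as the block assumes, so these rates need not hold for the data. Leaving out single libraries moved the median of nucleotide synthesis between -0.15 and 0.27, of chromatin assembly between 0.43 and 1.01, of fork protection between 0.10 and 0.74, of polymerases between -0.12 and 0.13, of clamp genes between -0.31 and -0.08, and of origin genes between -0.21 and -0.11. Of 359 alternative values of 24 named genes, 12 changed sign, none past the threshold. Single libraries left out gave ranges of -0.42 to 0.11 for Mcm5, -0.051 to 0.066 for Mcm6, -1.08 to 0.11 for Rpa3, -0.37 to 0.10 for Tyms, -0.74 to 0.27 for Dut and -0.64 to 0.10 for Tipin. With no change of sign they were -0.45 to -0.07 for Pold2, 0.19 to 0.54 for Pola2, -0.42 to -0.18 for Mcm2, 0.04 to 0.36 for Chaf1b and 0.07 to 0.74 for Timeless. Mcm6 was also -0.0014 without a filter, -0.013 with the length trend removed and -0.013 with the replicate block and the length trend removed, and Tipin was 0.00090 with the length trend removed. The causes were not tested. Each fit with 1 library left out assumes that the lone library varies like the other group. Cdc6 and Mcm10 rest on 7 to 41 and 8 to 40 counts per library, which limits their precision.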
